A study of Mus musculus with 8 samples.

Results

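Imprinted genes are transcribed mainly from 1 parental chromosome. The silent copy carries DNA methylation laid down in the germ line, together with repressive histone methylation. In the paternally expressed group the maternal copy is the silent one, so a gain of RNA can in principle come from either copy, and the arrays used here do not separate the copies. In embryonic stem cells, which derive from the inner cell mass, these genes include zinc finger transcription factors (Peg3, Plagl1), a translation regulator (Impact), a hydrolase-fold protein (Mest), a capsid-like gene needed for the placenta (Peg10) with its head-to-head neighbour Sgce, genes of the Prader-Willi region (Snrpn, Ndn) and a splicing factor gene (Zrsr1).

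Paternally expressed imprinted genes were taken as a list of 9 named genes, and their members as every probe set of the array whose single gene symbol in the platform table is one of them and whose 8 values span at least 0.01. A probe set is a group of short oligonucleotides that together report 1 transcript. The rule gave 15 informative probe sets, of 45101 on the array, for 8 of the 9 genes: 5 for Ndn, 3 for Peg3, 2 for Impact and 1 each for Plagl1, Mest, Peg10, Sgce and Snrpn. Zrsr1 had no probe set under its symbol. A further 9 probe sets of Peg3, Impact, Plagl1, Sgce and Ndn were flat, at levels between 5.54 and 6.70, and carried no measured difference. Over the whole array 11502 probe sets were informative. All values below are the deposited log2 values, so a difference of 1 is a doubling. A difference of group means is said to pass, rise or fall where its adjusted p from limma, over all 11502 informative probe sets, was under 0.05, and its SE rests on the spread pooled over all 4 groups of 2 arrays.

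The series compared mouse embryonic stem cells that lack Jmjd1a (gene symbol Kdm3a), Jmjd1b (Kdm3b) or both, demethylases that remove repressive methylation from histone H3. Each of the 4 genotypes was measured on 2 arrays labelled as biological replicates. WT cells were Jmjd1a+/+; Jmjd1b+/+, Jmjd1a-KO cells were Jmjd1adelta/delta; Jmjd1b+/+, Jmjd1b-KO cells were Jmjd1a+/+; Jmjd1bdelta/delta, and double-KO cells were Jmjd1adelta/delta; Jmjd1bdelta/delta. In the double-KO group, conditional Jmjd1b alleles were deleted by a tamoxifen-inducible MerCreMer in a Jmjd1a-deficient line. The treatment text names 800 nM OHT, the inducer, for all 8 samples alike, without saying which groups received it. All cells grew with leukemia-inhibiting factor in medium with 10% serum replacement and 1% fetal calf serum. The labels call the WT and Jmjd1b-KO cells cells from mice, whereas the design text describes Jmjd1b-deficient lines made by targeting and Cre in culture. Which line each array came from is not stated, so the genotype and the history of a line cannot be told apart.

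The targeted genes matched the labels. Kdm3a read 12.73 to 12.83 on the WT and Jmjd1b-KO arrays and 4.60 to 5.08 on the Jmjd1a-KO and double-KO arrays, and Kdm3b read 9.81 to 9.96 where Jmjd1b was intact and 7.06 to 7.66 where it was deleted. The whole-array medians lay between 6.800 and 6.814. All 13 listed stem cell markers were informative, with a mean of 10.66 to 11.48 on every array. Markers of other cell types differed between the groups. The 11 informative fibroblast markers of 20 averaged 8.45 and 8.60 in WT, 7.66 and 7.52 in Jmjd1a-KO, 6.81 and 6.67 in Jmjd1b-KO and 7.70 and 7.54 in double-KO, while the defining fibroblast genes Dcn, Lum and Pdgfra were flat. The Jmjd1a-KO and double-KO replicates were further apart (SD of the difference between replicates over informative probe sets, 0.35 and 0.30) than those of WT and Jmjd1b-KO (0.16 and 0.12).

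To show the DNA that lies in front of these genes, the 250 bases upstream of 4 annotated starts are printed, for the members whose arrays differed most between Jmjd1b-KO and the groups without Jmjd1a (Plagl1, Mest, Ndn) and for Snrpn, which lies in the same cluster as Ndn. They come from RefSeq (mouse GRCm38.p6), 5′ to 3′ on the strand of the gene, and capitals mark the motif matches described after them. Which start these cells use was not measured.
Plagl1, chr10:13090582-13090831, plus strand: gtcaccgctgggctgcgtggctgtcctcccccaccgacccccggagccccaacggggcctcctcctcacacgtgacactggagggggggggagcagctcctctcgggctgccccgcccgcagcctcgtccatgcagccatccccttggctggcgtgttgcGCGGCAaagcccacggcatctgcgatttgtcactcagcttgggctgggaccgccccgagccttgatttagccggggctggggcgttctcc
Mest, chr6:30737800-30738049, plus strand: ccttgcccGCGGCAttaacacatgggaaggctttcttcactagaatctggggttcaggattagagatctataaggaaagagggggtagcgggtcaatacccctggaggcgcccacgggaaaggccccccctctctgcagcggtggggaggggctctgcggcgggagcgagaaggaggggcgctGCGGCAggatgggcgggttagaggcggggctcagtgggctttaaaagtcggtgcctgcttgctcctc
Ndn, chr7:62348027-62348276, plus strand: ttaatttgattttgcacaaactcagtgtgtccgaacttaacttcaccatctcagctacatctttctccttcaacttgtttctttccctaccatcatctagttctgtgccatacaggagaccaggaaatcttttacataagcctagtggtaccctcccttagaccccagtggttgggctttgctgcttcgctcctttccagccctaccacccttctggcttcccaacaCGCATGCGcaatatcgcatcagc
Snrpn, chr7:60450178-60450427, minus strand: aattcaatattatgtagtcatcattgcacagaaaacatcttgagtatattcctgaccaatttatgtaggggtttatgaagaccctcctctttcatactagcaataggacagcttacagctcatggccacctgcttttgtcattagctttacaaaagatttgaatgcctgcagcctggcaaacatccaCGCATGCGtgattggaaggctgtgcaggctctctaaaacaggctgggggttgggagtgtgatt

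RefSeq windows were found for 6 of the 9 member genes, 11 windows in all. The capitals in Plagl1 and Mest are matches, on the reverse strand, to TGCCGC, the hexamer bound by ZFP57, which protects methylated imprinting control regions: 1 in Plagl1 and 2 in Mest. The capitals in Ndn and Snrpn are matches to GCATGCG, the core recognised by NRF1, a regulator of housekeeping and mitochondrial genes. Each of these has 2 matches, 1 on either strand, that overlap each other. The YY1 motif CCATNTT has no match in the 4 sequences. Mest and Snrpn have further windows that are not printed. A Mest window (chr6:30733256-30733505) and the Snrpn window also listed for Snurf (chr7:60005200-60005449) have no match to any of these motifs. The remaining Mest and Snrpn windows hold the same motif as the printed one. The Peg3 and Zrsr1 windows, also not printed, have no match to any of these motifs. Both strands were searched, and TGCCGC occurs in 8.68%, GCATGCG in 3.02% and CCATNTT in 12.4% of the 32851 windows of this length. The Plagl1 window holds 19 CpG dinucleotides and the Mest window 14, against a median of 6 over all windows, whereas Ndn has 5 and Snrpn 2. The motifs were chosen after the sequences had been seen, and a match is a description of the letters, not evidence of binding.

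**Figure D1:**
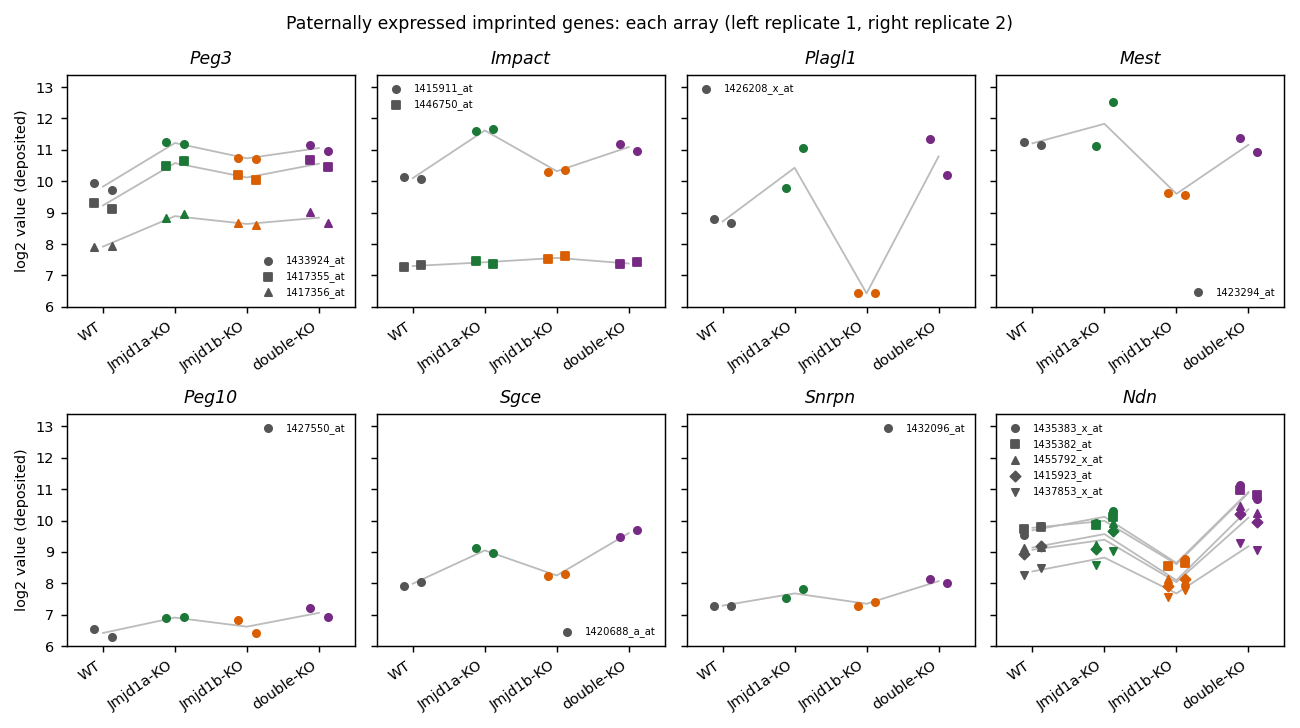
Deposited log2 value of every informative member probe set on each of the 8 arrays, by genotype (left point replicate 1, right point replicate 2, grey lines join group means, marker shapes are probe sets). Plagl1, Mest and Ndn are lowest on both Jmjd1b-KO arrays, Peg3 is lowest on both WT arrays, and Sgce is highest on both double-KO arrays.

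Among the transcription factors, Peg3, a zinc finger protein of imprinted growth control, was higher in all 3 mutant groups than in WT. Its brightest probe set, 1433924_at, read 9.96 and 9.71 in WT, 11.25 and 11.19 in Jmjd1a-KO, 10.75 and 10.71 in Jmjd1b-KO and 11.14 and 10.98 in double-KO. The WT arrays lay below all 6 others, the Jmjd1b-KO arrays lay between WT and the groups without Jmjd1a, and Jmjd1a-KO and double-KO were next to each other. The changes against WT were 1.39 (SE 0.10, 2.61-fold, adjusted p = 0.00282), 0.90 (SE 0.10, adjusted p = 0.00647) and 1.23 (SE 0.10, adjusted p = 0.000626). The other 2 Peg3 probe sets kept this order of WT below Jmjd1b-KO below Jmjd1a-KO, with changes of 1.35 and 0.96 in Jmjd1a-KO, 0.89 and 0.72 in Jmjd1b-KO and 1.33 and 0.92 in double-KO, all past the threshold. The neighbouring levels of Jmjd1a-KO and double-KO differed by -0.16 at 1433924_at (SE 0.10, adjusted p = 0.28).

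Plagl1, a zinc finger factor that restrains proliferation and acts on other imprinted genes, was lower than WT in Jmjd1b-KO and higher in double-KO. Its single informative probe set, 1426208_x_at, read 8.79 and 8.66 in WT, 9.78 and 11.07 in Jmjd1a-KO, 6.43 and 6.44 in Jmjd1b-KO and 11.36 and 10.21 in double-KO. Both Jmjd1b-KO arrays lay below WT and all 4 arrays without Jmjd1a lay above it, but replicate 2 minus replicate 1 was 1.28 in Jmjd1a-KO and -1.15 in double-KO. Plagl1 was lower in Jmjd1b-KO by -2.29 (SE 0.51, adjusted p = 0.0287) and higher in double-KO by 2.06 (SE 0.51, 4.18-fold, adjusted p = 0.0198). The Jmjd1a-KO value of 1.70 (SE 0.51) did not pass (adjusted p = 0.0681). Probe sets with this suffix can also hybridise to related transcripts, and the other 2 Plagl1 probe sets were flat, at 6.55 and 6.30. The Jmjd1b-KO level lies among those of the members' flat probe sets (5.54 to 6.70), so the size of any Plagl1 difference that involves Jmjd1b-KO is not resolved and no fold is given for it.

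Impact, which restrains the kinase Gcn2 and so keeps translation going under amino acid shortage, rose in the groups without Jmjd1a. Its bright probe set, 1415911_at, read 10.14 and 10.07 in WT, 11.59 and 11.66 in Jmjd1a-KO, 10.29 and 10.35 in Jmjd1b-KO and 11.19 and 10.98 in double-KO. The 4 groups did not overlap, in the order WT, Jmjd1b-KO, double-KO, Jmjd1a-KO, although the step from WT to Jmjd1b-KO of 0.22 (SE 0.08) did not pass (adjusted p = 0.11). Against WT the change was 1.52 in Jmjd1a-KO (SE 0.08, 2.87-fold, adjusted p = 0.00142) and 0.98 in double-KO (SE 0.08, 1.98-fold, adjusted p = 0.000666). The dim probe set 1446750_at did not share this pattern: it stayed between 7.27 and 7.61 on all arrays and was highest in Jmjd1b-KO, by 0.25 over WT (SE 0.07, adjusted p = 0.0461), a call lost without any 1 of the WT, Jmjd1b-KO or double-KO arrays (adjusted p of 0.0561 to 0.223).

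Mest, a hydrolase-fold protein of the endoplasmic reticulum expressed in growing mesoderm, was low in Jmjd1b-KO. Probe set 1423294_at read 11.25 and 11.17 in WT, 11.13 and 12.52 in Jmjd1a-KO, 9.62 and 9.57 in Jmjd1b-KO and 11.39 and 10.93 in double-KO. Both Jmjd1b-KO arrays lay below all 6 others, whereas Jmjd1a-KO and double-KO each had 1 array below and 1 above the WT arrays. The change in Jmjd1b-KO was -1.61 (SE 0.43, 3.06-fold lower, adjusted p = 0.0448), close to the threshold. The values were 0.62 in Jmjd1a-KO (SE 0.43, adjusted p = 0.341) and -0.05 in double-KO (SE 0.43, adjusted p = 0.938).

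Peg10 and Sgce lie head to head and share a promoter region. Peg10, a retrotransposon-derived gene, was dim: 1427550_at read 6.55 and 6.29 in WT, 6.90 and 6.92 in Jmjd1a-KO, 6.82 and 6.42 in Jmjd1b-KO and 7.20 and 6.92 in double-KO. Sgce, which encodes epsilon-sarcoglycan of the dystrophin-associated complex, read 7.92 and 8.05 in WT, 9.14 and 8.96 in Jmjd1a-KO, 8.22 and 8.29 in Jmjd1b-KO and 9.49 and 9.70 in double-KO at 1420688_a_at. Sgce was stepwise higher from WT through Jmjd1b-KO and Jmjd1a-KO to double-KO with no overlap between groups, and Peg10 had the same order of means with overlapping arrays. Sgce rose by 1.07 in Jmjd1a-KO (SE 0.10, 2.10-fold, adjusted p = 0.00557) and by 1.61 in double-KO (SE 0.10, 3.05-fold, adjusted p = 0.000318), with 0.27 in Jmjd1b-KO (SE 0.10, adjusted p = 0.11). Peg10 passed only in double-KO, at 0.63 (SE 0.17, adjusted p = 0.0245); its WT level lies among those of the flat probe sets, so no fold is given. Over the 8 arrays the 2 genes correlated at r = 0.81, a description over arrays that share the 4 genotypes.

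In the Prader-Willi region, Ndn (necdin, a MAGE family protein of neurons and progenitors) was low without Jmjd1b alone and high without both demethylases. Its brighter probe set with the plain _at suffix, which marks probes chosen for a single transcript, was 1435382_at and read 9.72 and 9.81 in WT, 9.85 and 10.12 in Jmjd1a-KO, 8.55 and 8.66 in Jmjd1b-KO and 10.96 and 10.80 in double-KO. The 4 groups did not overlap, and the Jmjd1a-KO arrays lay closest to WT. The change was -1.16 in Jmjd1b-KO (SE 0.11, 2.24-fold lower, adjusted p = 0.00463), 1.11 in double-KO (SE 0.11, 2.17-fold, adjusted p = 0.00102) and 0.22 in Jmjd1a-KO (SE 0.11, adjusted p = 0.206). The other 4 Ndn probe sets gave the same signs, from -0.70 to -1.04 in Jmjd1b-KO and from 0.80 to 1.23 in double-KO, all past the threshold. They report the same RNA and are not independent of one another.

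Snrpn encodes the SmN spliceosome protein from the same cluster. Its single-symbol probe set 1432096_at was dim, at 7.29 and 7.29 in WT, 7.53 and 7.83 in Jmjd1a-KO, 7.29 and 7.40 in Jmjd1b-KO and 8.13 and 8.0 in double-KO. Snrpn differed from WT by 0.06 in Jmjd1b-KO (adjusted p = 0.727) and was highest in double-KO, where it rose by 0.78 (SE 0.11, 1.71-fold, adjusted p = 0.00327). The 6 brighter or dimmer probe sets that name Snrpn together with Snurf, read from the same transcript, fall outside the rule and were not counted. Of these, 5 were informative. At 1435716_x_at the values were 10.24 and 10.26 in WT, 11.18 and 11.32 in Jmjd1a-KO, 10.29 and 10.39 in Jmjd1b-KO and 11.94 and 11.80 in double-KO. All 5 passed in Jmjd1a-KO (0.78 to 1.08) and in double-KO (1.44 to 1.97) and none in Jmjd1b-KO (-0.41 to 0.09), so the dim probe set's Jmjd1a-KO value of 0.39 (adjusted p = 0.0618) was the one of these 6 that missed the threshold there. Unlike Ndn, no Snrpn or joint probe set fell in Jmjd1b-KO.

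Loss of Jmjd1a alone left the members at or above their WT level. Peg3 (3 probe sets), Impact (1415911_at) and Sgce rose, between 1.95-fold and 2.87-fold, and no member fell. These were 5 of the 15 probe sets, or 33.3%, where 17.8% of all 11502 passed (9.98% higher and 7.84% lower). The members' median difference was 0.48, against 0.004 over all probe sets, and 15 of 15 differences were positive. In a fit of the whole table, which keeps the flat probe sets and so estimates the spread differently, 4 of the 15 passed against 1.72% of all, and Peg3 1417356_at was the one lost (adjusted p = 0.084). Without Jmjd1a-KO replicate 1, Plagl1, Mest, Snrpn and Ndn 1455792_x_at passed as well, although fewer of all probe sets passed. Without WT replicate 1 or 2, Peg3 1417356_at was lost (adjusted p = 0.0652 and 0.0679).

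Loss of Jmjd1b alone split the members. Peg3 rose by 0.72 to 0.90 and the dim Impact probe set by 0.25, while Plagl1 fell to the level of flat probe sets, and Mest and all 5 Ndn probe sets fell by 1.63-fold to 3.06-fold. Peg10, Sgce, Snrpn and Impact 1415911_at did not pass, with values between 0.06 and 0.27. The 11 called probe sets were 73.3% of the members, where 23.9% of all passed (12.3% higher and 11.5% lower). With 1 probe set per gene, the one of highest mean, 1 member gene of 8 was higher and 3 lower, against 13.6% and 10.2% of 7181 genes. The SE pools all 4 groups. For Plagl1, replicate 2 minus replicate 1 was -0.13 in WT and 0.01 in Jmjd1b-KO, but 1.28 in Jmjd1a-KO and -1.15 in double-KO. Jmjd1b-KO against WT had 13 called member probe sets when only these groups were fitted, and 13 with arrays weighted by their scatter. Of all 11502, 5071 and 5526 passed in those fits. This comparison depended most on single arrays and on the fit. Without any 1 of the WT or Jmjd1b-KO arrays few or none of the members passed, and far fewer of all probe sets passed as well. In the whole-table fit 1 probe set, Ndn 1435382_at, passed (adjusted p = 0.036; 1.82% of all probe sets passed). The values hardly moved, and what was lost was the call: Plagl1 had adjusted p of 0.105 to 0.133 and Mest of 0.144 to 0.177 in the fits without 1 array of WT or of Jmjd1b-KO.

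**Figure D2:**
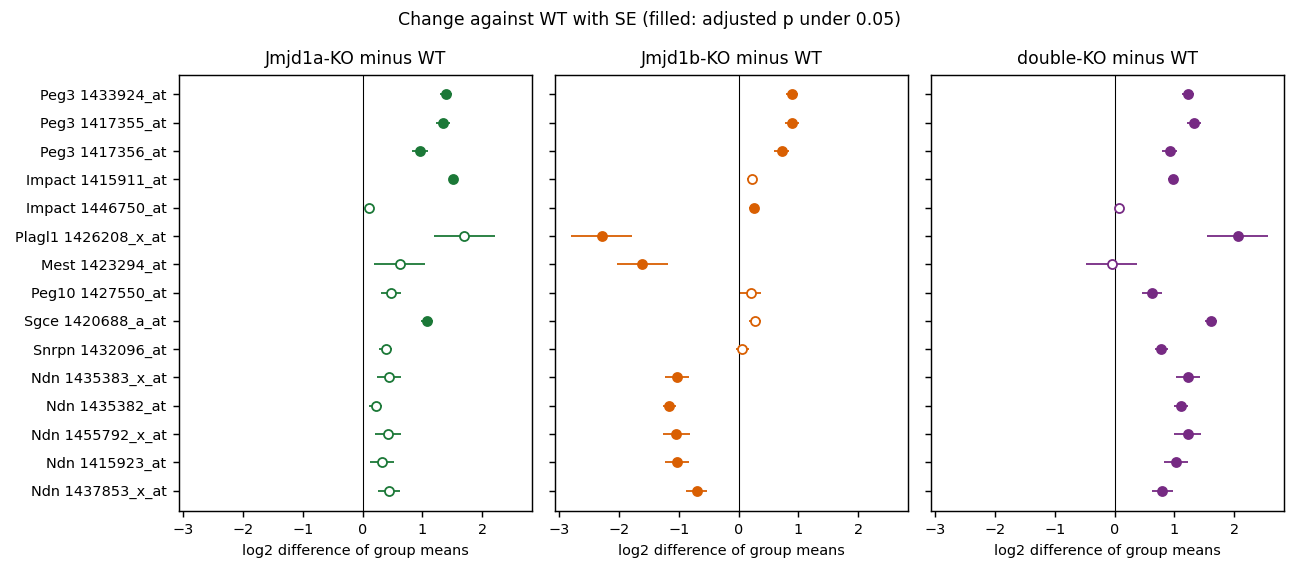
Change of each member probe set against WT in the 3 mutant groups (x axis, log2 difference of group means, bars are the SE from limma, filled points have an adjusted p under 0.05). In double-KO 13 of 15 points are filled and to the right of 0, whereas in Jmjd1b-KO 7 filled points are to the left and 4 to the right.

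With both demethylases lost, 7 of the 8 measured genes rose. Peg3, Impact 1415911_at, Plagl1, Peg10, Sgce, Snrpn and Ndn were higher than in WT, by 1.71-fold (Snrpn) to 4.18-fold (Plagl1) without Peg10, for which no fold is given, and no member was lower. Mest (-0.05) and Impact 1446750_at (0.08) did not pass. The 13 of 15 probe sets were 86.7%, but 46.5% of all probe sets passed in this comparison, 26.9% as higher and 19.6% as lower. The members' median was 1.02, against 0.018 over all. In the whole-table fit 7 passed: the 3 of Peg3, Impact 1415911_at, Sgce, Snrpn and Ndn 1435382_at, where 7.16% of all passed. Single arrays changed the call of Plagl1 (lost without WT replicate 1, WT replicate 2 or double-KO replicate 1, adjusted p of 0.0771 to 0.0898), of Peg10 (lost without WT replicate 2 or double-KO replicate 1, adjusted p = 0.123 and 0.106) and of Ndn 1415923_at (lost without WT replicate 1, 0.0594) and 1437853_x_at (lost without WT replicate 1 or double-KO replicate 1, 0.0826 and 0.069). The 3 comparisons with WT share the same 2 WT arrays, so an odd WT array would shift all 3.

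The mutant groups were also compared with each other, without the WT arrays entering the difference. In double-KO against Jmjd1a-KO, Ndn was higher (4 of its 5 probe sets, 0.70 to 0.90), as was Sgce (0.54, SE 0.10, adjusted p = 0.0147). Impact 1415911_at was lower by -0.54 (SE 0.08, adjusted p = 0.00835). Ndn 1435382_at had an adjusted p of 0.00438. The other Ndn calls lay close to the threshold (adjusted p of 0.0345 to 0.0483) and were lost in most fits without 1 array. Peg3, Plagl1, Mest, Peg10 and Snrpn did not pass. The 6 calls were 40% of the members, where 28.9% of all passed (17% higher and 11.9% lower). In the whole-table limma fit none of the 15 passed, where 2.86% of all did and 7 members had an unadjusted p under 0.05. None passed in limma when only these 2 groups were fitted. Of all 11502 probe sets 556 passed in that fit, and 6 members had an unadjusted p under 0.05. Fewer members, and fewer of all probe sets, passed without WT replicate 1 or 2, Jmjd1b-KO replicate 1 or 2, or double-KO replicate 1. Of these arrays only the last enters the difference, and the others enter the shared estimate of the spread.

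Against Jmjd1b-KO, the double-KO cells were higher in 12 of 15 probe sets and lower in none. The largest gaps were Plagl1 (4.35, SE 0.51, adjusted p = 0.00144) and Ndn 1435382_at (2.28, SE 0.11, 4.84-fold, adjusted p = 0.000155), followed by Mest (1.56, SE 0.43, adjusted p = 0.0265) and Sgce (1.35, SE 0.10, adjusted p = 0.000447). Peg3 1417356_at, Peg10 and Impact 1446750_at did not pass. Of all probe sets 50.1% passed, 28.3% as higher and 21.8% as lower. In the whole-table fit 9 of the members passed, and 8.47% of all. The calls of Peg3 and Mest were lost when 1 array was left out: Mest without any 1 of the WT, Jmjd1b-KO or double-KO arrays (adjusted p of 0.0508 to 0.118), and Peg3 1433924_at and 1417355_at without Jmjd1b-KO replicate 1 or 2 or double-KO replicate 1 (0.0635 to 0.17).

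Between the single knockouts, Jmjd1a-KO was higher than Jmjd1b-KO in 11 of 15 probe sets and lower in none. These were 2 of Peg3, Impact 1415911_at (1.30, SE 0.08, adjusted p = 0.00115), Plagl1 (3.99, SE 0.51, adjusted p = 0.00476), Mest (2.23, SE 0.43, adjusted p = 0.0152), Sgce (0.80, SE 0.10, adjusted p = 0.00489) and the 5 of Ndn (1.14 to 1.47). Of all probe sets 27.8% passed, 15.1% as higher and 12.7% as lower, and the members' median was 1.14 against -0.001. The whole-table fit kept Impact 1415911_at and Ndn 1435382_at, 2 of 15, where 3.02% of all passed. Fewer members passed without Jmjd1b-KO replicate 1 or 2, and fewer of all probe sets did as well.

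Whether losing Jmjd1b acted differently with and without Jmjd1a was tested as an interaction, the change from Jmjd1a-KO to double-KO minus the change from WT to Jmjd1b-KO. It was positive for Plagl1 (2.65, SE 0.72, adjusted p = 0.0444) and for all 5 Ndn probe sets (1.06 to 2.06; 1435382_at, SE 0.16, adjusted p = 0.0025), which fell on loss of Jmjd1b in cells with Jmjd1a and had positive differences in cells without it (0.36 for Plagl1, 0.36 to 0.90 for Ndn). The Plagl1 value rests on its unresolved Jmjd1b-KO level. Of the 11 informative fibroblast markers, 7 had a positive and 1 a negative interaction (median 0.88, where 13.7% and 11.9% of 7181 genes had), and 6 were higher and 2 lower in double-KO than in Jmjd1b-KO; their part in the members' values was not tested. It was negative for the 3 Peg3 probe sets (-1.06, -0.91 and -0.77) and Impact 1415911_at (-0.75, SE 0.12, adjusted p = 0.0105): Peg3 differed between double-KO and Jmjd1a-KO by -0.16, -0.01 and -0.04, against 0.90, 0.89 and 0.72 between Jmjd1b-KO and WT. Mest, Peg10, Sgce, Snrpn and Impact 1446750_at did not pass. Mest was at 0.95 (SE 0.61, adjusted p = 0.291). The 10 calls were 66.7% of the members, where 24.9% of all passed (13.9% positive and 11.1% negative). In the whole-table fit Ndn 1435382_at alone passed (adjusted p = 0.0132; 2.76% of all). Fewer members, and fewer of all probe sets, passed when any 1 of the WT or Jmjd1b-KO arrays was left out.

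**Figure D3:**
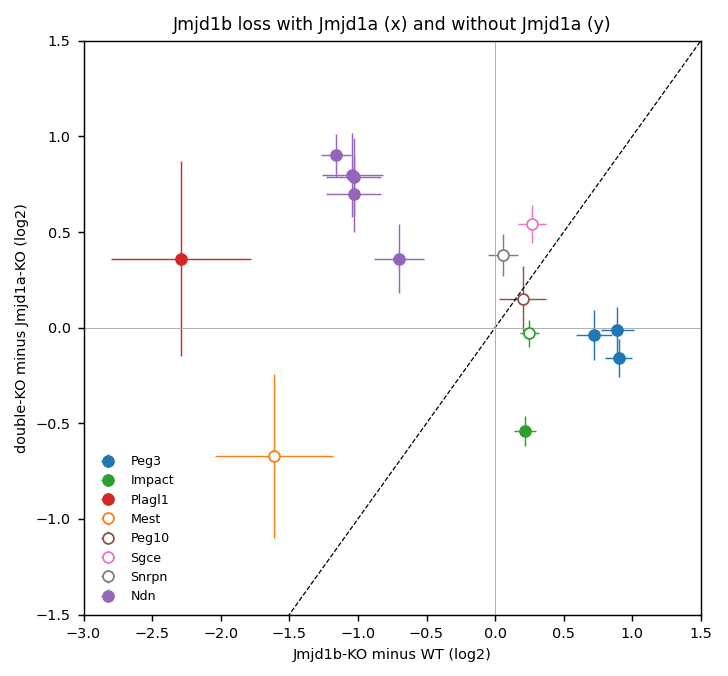
Change on loss of Jmjd1b in cells with Jmjd1a (x axis, Jmjd1b-KO minus WT, log2) and without it (y axis, double-KO minus Jmjd1a-KO, log2) for the 15 member probe sets, with SE bars, a dashed line of equal change and filled points where the interaction had an adjusted p under 0.05. The Ndn probe sets lie left of 0 and above 0, and the Peg3 probe sets lie right of 0 and at or just below 0.

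Genes beside the members were measured for comparison, from a list of 28 neighbours of which 15 had an informative probe set. In Jmjd1a-KO 3 of the 15 were higher and none lower, in Jmjd1b-KO 3 were higher and 2 lower, and in double-KO 4 were higher and 1 lower. Of all 7181 genes measured in this way, 10% were higher and 7.83% lower in Jmjd1a-KO, 13.6% and 10.2% in Jmjd1b-KO, and 28.1% and 19.8% in double-KO, so the neighbours' share of higher calls in double-KO was near the background. Mkrn3, a paternally expressed ubiquitin ligase gene beside Ndn, read 6.70 and 6.70 in WT, 7.34 and 7.39 in Jmjd1a-KO, 6.83 and 6.75 in Jmjd1b-KO and 7.97 and 7.65 in double-KO, the order of Snrpn rather than of Ndn. It rose by 0.67 in Jmjd1a-KO (SE 0.11, adjusted p = 0.0163) and by 1.11 in double-KO (SE 0.11, adjusted p = 0.000995). Peg12, from the same cluster, read 7.55 and 7.67 in WT, 7.0 and 8.13 in Jmjd1a-KO, 5.75 and 5.85 in Jmjd1b-KO and 8.26 and 6.74 in double-KO, with wide replicates like those of Plagl1. Ube3a, the maternally expressed ligase at the far end, passed in none of the 7 comparisons. Magel2 was flat.

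At the other clusters some neighbours passed in the direction of the member beside them, some passed where that member did not, and others did not pass. Osbpl1a, beside Impact, was higher in Jmjd1b-KO by 0.78 (SE 0.17, adjusted p = 0.0295), with 0.63 in Jmjd1a-KO and 0.34 in double-KO, which did not pass (adjusted p = 0.0582 and 0.157). Copg2 beside Mest and Casd1 and Ppp1r9a beside Sgce passed in none of the 7 comparisons. Cep41, also beside Mest, was lower in double-KO by -0.56 (SE 0.10, adjusted p = 0.00767), where Mest did not pass. Asb4, from the cluster of Peg10 and Sgce, was lower in Jmjd1b-KO by -0.35 (SE 0.09, adjusted p = 0.0415), where neither member passed. Its Jmjd1b-KO values (6.32 and 6.39) lie among the levels of the members' flat probe sets, so the size of this difference is not resolved. Phactr2, beside Plagl1, differed in the same directions as Plagl1: 0.32 in Jmjd1a-KO (adjusted p = 0.0163), -0.21 in Jmjd1b-KO (adjusted p = 0.038) and 0.41 in double-KO (adjusted p = 0.00224). Its WT (6.67 and 6.63) and Jmjd1b-KO values (6.46 and 6.41) lie among the levels of the members' flat probe sets. The sizes of these differences are therefore not resolved. Commd1, whose intron holds Zrsr1, was higher by 0.42, 0.52 and 0.43 in Jmjd1a-KO, Jmjd1b-KO and double-KO (adjusted p = 0.0496, 0.0261 and 0.0232), which says nothing of Zrsr1 itself. Usp29 and Zim1, beside Peg3, were flat.

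Other imprinted genes gave calls in both directions. Of 25 further paternally expressed genes, Mkrn3 and Peg12 included again, 12 were informative, with 4 higher and 2 lower in Jmjd1a-KO, 1 higher and 4 lower in Jmjd1b-KO and 3 higher and 2 lower in double-KO. Of all 7181 genes, 10% were higher and 7.83% lower in Jmjd1a-KO, 13.6% and 10.2% in Jmjd1b-KO, and 28.1% and 19.8% in double-KO. The counts of these paternally expressed genes in double-KO were near those shares. Kcnq1ot1, the antisense RNA that silences its cluster, was higher in Jmjd1a-KO by 1.96 (SE 0.29, adjusted p = 0.0129) and lower in double-KO than in Jmjd1a-KO by -1.64 (SE 0.29, adjusted p = 0.0116). Sfmbt2, a Polycomb-group gene, was higher in all 3 mutants (1.21, 1.14 and 1.62). Nnat was lower in Jmjd1b-KO by -1.37 (SE 0.30, adjusted p = 0.0277), and Ddc lower in double-KO by -3.57 (SE 0.19, adjusted p = 0.000218). Of 32 maternally expressed genes 18 were informative, with 0 higher and 6 lower in Jmjd1a-KO, 0 and 4 in Jmjd1b-KO, and 2 and 6 in double-KO. The 2 that were higher in double-KO were Calcr (1.58) and Gnas (0.36). The noncoding RNA genes Rian (-6.71 and -6.52) and Meg3 (-4.94 and -5.01) were lower in Jmjd1a-KO and double-KO, with -0.97 and -0.67 in Jmjd1b-KO, which did not pass. Lower in all 3 mutants were the growth inhibitors Grb10 (-3.28, -3.55 and -5.75) and Cdkn1c (-3.67, -2.81 and -3.95).

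Genes that set or protect imprints were also compared. Of 28 listed, 18 were informative, with 2 higher and 6 lower in Jmjd1a-KO, 2 and 2 in Jmjd1b-KO, and 4 and 5 in double-KO. The shares over all 7181 genes were 10% higher and 7.83% lower in Jmjd1a-KO, 13.6% and 10.2% in Jmjd1b-KO, and 28.1% and 19.8% in double-KO. The de novo methyltransferase gene Dnmt3a was lower in Jmjd1a-KO by -1.13 (SE 0.28, adjusted p = 0.0453) and in double-KO by -3.32 (SE 0.28, adjusted p = 0.000666). Its cofactor gene Dnmt3l was higher in Jmjd1b-KO (1.87, SE 0.30, adjusted p = 0.0135) and lower in Jmjd1a-KO (-1.56) and double-KO (-2.10, adjusted p = 0.00324). Dnmt3l was therefore high in the group where Plagl1, Mest and Ndn were low. Dppa3, which shields the maternal genome from demethylation, rose by 0.87 in Jmjd1a-KO and 0.76 in double-KO. Trim28, the corepressor recruited by ZFP57, was lower in Jmjd1a-KO by -0.34 (SE 0.06, adjusted p = 0.02), and Zfp57 itself was flat. DNA methylation was not measured, and the part of these genes in the members' values was not tested.

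Markers of other cell types shared parts of the pattern of some members. Among the 6 informative neural markers of 9, Sox1 and Fabp7 shared the uneven replicates of Plagl1 in both Jmjd1a-KO and double-KO. Tubb3 and Pax6 shared their direction in Jmjd1a-KO alone, and Otx2 in neither group. Sox1 read 9.28 and 9.28 in WT, 7.72 and 9.76 in Jmjd1a-KO, 6.17 and 6.02 in Jmjd1b-KO and 8.77 and 7.41 in double-KO, and Fabp7 read 10.61 and 10.72, 7.66 and 9.64, 5.29 and 5.25, and 8.18 and 6.95. As with Plagl1, replicate 2 was the higher Jmjd1a-KO array, replicate 1 the higher double-KO array, and both Jmjd1b-KO arrays were lowest. Otx2 read 9.40 and 8.79 in Jmjd1a-KO, 10.34 and 10.79 in Jmjd1b-KO and 10.38 and 11.21 in double-KO, against 9.64 and 9.74 in WT. Tubb3 (9.35 and 10.48) and Pax6 (7.35 and 7.62) had the higher Jmjd1a-KO value in replicate 2, as Plagl1 did. Their higher double-KO value was in replicate 2 as well (7.44 and 8.36 for Tubb3, 7.04 and 7.51 for Pax6), unlike that of Plagl1. Nes differed little between replicates (8.05 and 8.19 in Jmjd1a-KO, 8.19 and 8.13 in double-KO). Sox1 and Fabp7 were below WT on the double-KO arrays, whereas Plagl1 and Ndn were above it. In Jmjd1a-KO, Fabp7 was below WT on both arrays and Sox1 on replicate 1, whereas Plagl1 was above WT on both. Over the 6 neural markers, none was called in Jmjd1a-KO, 2 were lower in Jmjd1b-KO (10.2% of all 7181 genes were), and 1 was higher and 3 lower in double-KO (28.1% and 19.8% of all). The means of the 6 neural markers were 9.19 and 9.27 in WT, 8.25 and 9.08 in Jmjd1a-KO, 7.74 and 7.75 in Jmjd1b-KO and 8.33 and 8.26 in double-KO.

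Of the 11 informative fibroblast markers, 8 were lower in Jmjd1a-KO, 7 lower and 1 higher in Jmjd1b-KO, and 6 lower in double-KO. For this and the lists below, the shares of all 7181 genes were 10% higher and 7.83% lower in Jmjd1a-KO. They were 13.6% and 10.2% in Jmjd1b-KO, and 28.1% and 19.8% in double-KO. Acta2, a contractile actin gene of mesenchymal cells, fell by 4.75 on the log2 scale in Jmjd1b-KO (SE 0.40, adjusted p = 0.00375). Of the 5 informative trophoblast markers of 10, 5 were higher in Jmjd1b-KO and 4 in double-KO, with means of 7.49 and 7.66 in WT against 9.52 and 9.48 in double-KO. These were the keratin genes Krt7, Krt8, Krt18 and Krt19 together with Tfap2c, whereas Cdx2, Elf5, Gata3, Hand1 and Tpbpa were flat. Endoderm had 5 informative markers of 10, with 3 higher and 1 lower in double-KO, while Gata4, Foxa2, Afp, Cxcr4 and Ttr of that list were flat. Mesoderm had 1 of 8, Eomes, which was higher in all 3 mutants. In bulk RNA, fewer cells of a type and less RNA per cell cannot be told apart, and the part of these marker differences in the members' values was not tested. The RNA controls Actb and Gapdh did not pass in any comparison and averaged 13.91 to 13.96 on all arrays.

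**Figure D4:**
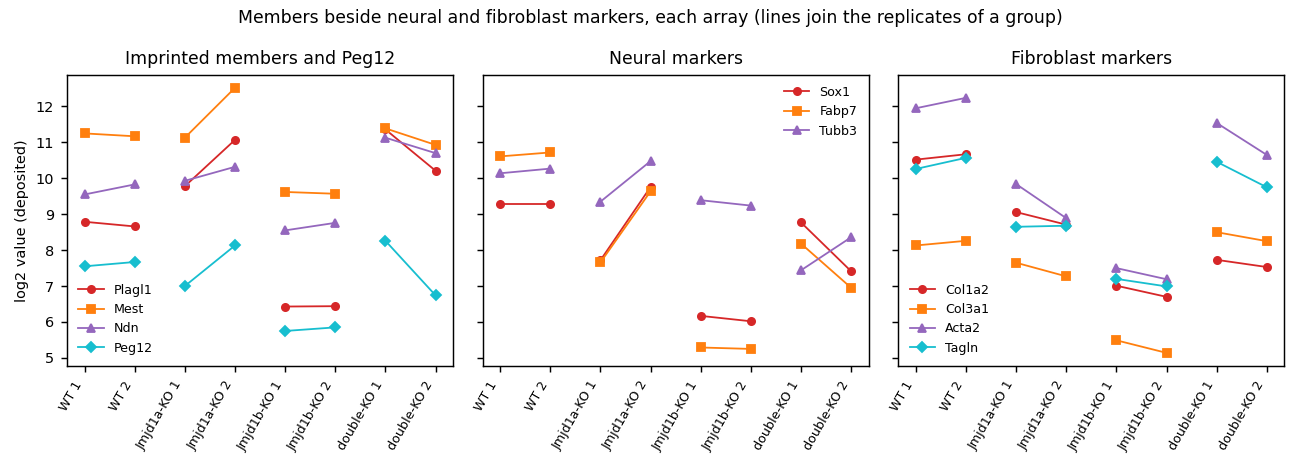
Deposited log2 values on each of the 8 arrays (x axis) for the members Plagl1, Mest and Ndn with Peg12, for 3 neural and for 4 fibroblast marker genes; lines join the 2 replicates of a group. The marker genes shown are a selection from 6 informative neural and 11 informative fibroblast markers. Most genes shown are low in Jmjd1b-KO, and in double-KO Plagl1 and Ndn are above WT while Fabp7 and Col1a2 are below it. Over the full lists, 2 neural markers were lower and 0 higher in Jmjd1b-KO than in WT, and 7 fibroblast markers were lower and 1 higher. Otx2 (mean 10.56 against 9.69 in WT) and Thy1 (7.66 against 7.10), not shown, had higher means in Jmjd1b-KO.

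The members fell into patterns of their own rather than a single one. Over the 8 arrays Plagl1 correlated most with Ndn (r = 0.95) and Mest (r = 0.88), Peg3 with Peg10 (r = 0.87) and Impact (r = 0.84), and Sgce with Snrpn (r = 0.92), while Peg3 and Mest were at r = 0.18. With 8 arrays in 4 genotypes these values describe the order of the groups and carry no test. The same measure over all probe sets with a span of at least 1 gave the most similar genes. For Plagl1 they were Prom1 (r = 0.991), Dennd5b (r = 0.987) and Irf2bpl (r = 0.986), and for Ndn they were Dusp4 (r = 0.988), Ebag9 (r = 0.988) and Tox3 (r = 0.987). For Sgce they were Dact2 (r = 0.996), Dcxr (r = 0.995) and Pdlim1 (r = 0.994). For Peg3 they were St8sia6 (r = 0.97), Six4 (r = 0.967) and Nlrp4f (r = 0.965), and Six4 was also among the 3 most similar to Peg10 (r = 0.924). Impact was nearest to Strn3 (r = 0.971), Mest to Gli3 (r = 0.974) and Snrpn to H2aw (r = 0.986). Each was the closest of 2777 to 2782 candidate probe sets, a choice that selects high values.

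Close relatives of the members were also measured. Of 14 listed relatives 5 were informative, none passed in Jmjd1a-KO, 1 was lower in Jmjd1b-KO (10.2% of all 7181 genes were) and 2 were higher in double-KO (28.1% of all). Snrpb, which encodes the ubiquitous counterpart of SmN, passed in none of the 7 comparisons. Plagl2, the relative of Plagl1, was higher in double-KO by 0.48 (SE 0.15, adjusted p = 0.0401). Nsmce3, a MAGE family relative of Ndn, differed like Ndn at a smaller scale, with -0.41 in Jmjd1b-KO (SE 0.08, adjusted p = 0.0196) and 0.28 in double-KO (SE 0.08, adjusted p = 0.0261).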

How the data were processed

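RNA from 8 mouse embryonic stem cell samples was measured on single-colour arrays of 45101 probe sets. The deposited table holds log2 values as processed by the authors. R 2.7.2 is listed in the submitters' processing notes, with the normalization not given in the sources used here. Probe sets whose 8 values span under 0.01 are flat and carry no measured difference. Groups were taken from the labels, 4 of 2 arrays, and nothing says how the biological replicates were made, so p-values measure the spread between these arrays.

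Differences of group means were fitted with limma 3.58.1 (R 4.3.3), lmFit and eBayes, over the 11502 informative probe sets, with 1 error per probe set from all 8 arrays and Benjamini-Hochberg adjustment at 0.05. The prior had 1.89 degrees of freedom beside 4 residual ones, against 0.12 when flat probe sets entered, and both counts are given. Every informative member probe set was named; other lists used the informative probe set of highest mean, and from them genes that share a cluster with a member and some of the largest changes past the threshold with no overlap between arrays (up to 6 a list and comparison) were named. A few others, such as Casd1, Ube3a and Snrpb, were named for not passing. The members and lists were chosen with earlier results of these data known. Scripts were tested on simulated data. Figures used matplotlib 3.10.9 in Python 3.11.15. Alternatives covered the probe sets fitted, normalization, error model, replicate block, threshold and each array left out.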

Additional observations from a re-analysis of the deposited data

Results flagged for a closer look

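For 10 of the 15 member probe sets, the effect of losing Jmjd1b differed between cells with and without Jmjd1a by the interaction test in limma. The interaction was positive for Plagl1 (2.65, with a Jmjd1b-KO level among those of flat probe sets) and for the Ndn probe sets 1435383_x_at (1.82), 1435382_at (2.06), 1455792_x_at (1.84), 1415923_at (1.73) and 1437853_x_at (1.06). It was negative for the Peg3 probe sets 1433924_at (-1.06), 1417355_at (-0.91) and 1417356_at (-0.77) and for Impact 1415911_at (-0.75). The Ndn probe set 1435382_at was the one that also passed in the fit of the whole table. Groups of 2 arrays were too small to look for single outlying arrays.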

How the results depend on the processing

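No called difference changed sign under any alternative. With the flat probe sets in the fit, the count of member probe sets called went from 11 to 1 in Jmjd1b-KO against WT, from 13 to 7 for double-KO against WT, from 6 to 0 for double-KO against Jmjd1a-KO, from 11 to 2 between the single knockouts and from 10 to 1 for the interaction. Requiring a log2 change of at least 1 gave 6 in Jmjd1b-KO against WT, 8 in double-KO against WT and 0 in double-KO against Jmjd1a-KO. Of all 11502 probe sets, 421, 1185 and 578 passed in these comparisons at that cut. For double-KO against Jmjd1a-KO, array weights gave 3 (1623 of all 11502 passed), and fitting only the 2 groups gave 0 (556 of all). In Jmjd1b-KO against WT each gave 13 (5526 and 5071 of all). Leaving out 1 array at a time gave 4 to 9 for Jmjd1a-KO against WT, 0 to 11 for Jmjd1b-KO against WT, 10 to 13 for double-KO against WT, 3 to 8 for double-KO against Jmjd1a-KO, 9 to 12 for double-KO against Jmjd1b-KO, 6 to 11 between the single knockouts and 4 to 11 for the interaction. Each such fit leaves 1 array in a group, which is assumed to vary like the others.

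The labels share replicate numbers 1 and 2 but do not say that a number pairs arrays. Replicate 2 minus replicate 1 correlated at 0.24 between WT and Jmjd1a-KO and at -0.04 to 0.07 between the other groups. The numbers were not taken as pairs. With the replicate block the count for double-KO against Jmjd1a-KO was 3, where 2868 of all 11502 passed. Crossing the replicate numbers of double-KO in that block, an alternative chosen after seeing the data, gave 9 for Jmjd1a-KO against WT (2341 of all 11502 passed). Calls of genes outside the members were not recomputed without single arrays.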
